A study of Rattus norvegicus with 2 samples.

Results

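Imprinted genes are read mainly from the copy inherited from 1 parent, and 10 of them that are known for expression in the hypothalamus or for roles in growth and feeding were followed here: Peg3, Dlk1, Ndn, Magel2, Snrpn, Grb10, Gnas, Nnat, Plagl1 and Mest. The list was chosen by name, with earlier results of these data known. Of these 10 genes, 8 were found on the arrays through their RefSeq accessions, among 39500 genes and unnamed transcripts in all. They were measured by 16 probes on 53 spots of each array. Magel2, which encodes a MAGE family protein that works with ubiquitin ligases, and Grb10, which encodes an adaptor of the insulin receptor, were not matched to a probe and are not analysed here.

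The RNA was hypothalamic, from rats of the strain SHR, which become hypertensive with age. All rats were 9 weeks old and fed freely, and the labels name no treatment before the ether used for killing. Each sex was 1 pool, with 100 ng of RNA from each of 5 rats, measured on 1 single-colour (Cy3) Agilent array, so the comparison addresses how the sexes of this strain differ but carries no replicate error and no test. Pooling hides the spread between rats, and in tissue RNA fewer cells of a type cannot be told apart from less RNA per cell. Both arrays were on 1 slide and were scanned together. Of 58717 spots for rat transcripts, 71.6% (male) and 73.0% (female) were well above background. A level below is a probe's signal divided by the 75th percentile of its array, which was 2203 units (male) and 2254 units (female). A difference is the male minus the female log2 level, positive where the male pool was higher. The technical SD beside a difference comes from repeat spots of the same probe within an array and covers printing and scanning of spots only, not labelling, arrays or animals. Oxt, the oxytocin gene that marks the hypothalamus, had levels of 10.5 (male) and 10.8 (female), at ranks 613 and 589 of 45591 probes.

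Genomic imprinting is set by DNA methylation laid down in the egg or the sperm and kept at control regions through life, and many imprinted genes are expressed most in brain, placenta and endocrine tissue. The paternally read genes of this list include Peg3, Dlk1, Ndn, Magel2, Snrpn, Nnat, Plagl1 and Mest; Gnas and Grb10 differ between tissues and transcripts in the copy that is read. Loss of the paternal copies of the human region with NDN, MAGEL2 and SNRPN causes Prader-Willi syndrome, in which hypothalamic function and feeding are disturbed. Imprinting itself was not measured here, since an expression array does not tell the parental copies apart.

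The members lie on several rat chromosomes, with Plagl1, Peg3, Snrpn and Ndn on chromosome 1, Nnat and Gnas on chromosome 3, Mest on chromosome 4 and Dlk1 on chromosome 6. The 250 bases before a gene's start were taken from RefSeq promoters of the build GRCr8, which hold 11 starts for 9 of the 10 members, 3 of them for Gnas; Nnat was not matched. The median number of CpG dinucleotides, the sites that DNA methylation marks, was 15 over these 11 windows and 5 over all 33469 windows. The 4 windows below belong to measured members with 1 start and were chosen because they run from 10 CpG to the highest count among the members; capitals mark each CpG.
Ndn: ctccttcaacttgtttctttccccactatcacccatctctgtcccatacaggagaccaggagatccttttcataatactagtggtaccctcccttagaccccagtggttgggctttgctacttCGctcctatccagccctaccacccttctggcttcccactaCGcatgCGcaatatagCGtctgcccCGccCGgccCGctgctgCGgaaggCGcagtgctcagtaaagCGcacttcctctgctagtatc
Peg3: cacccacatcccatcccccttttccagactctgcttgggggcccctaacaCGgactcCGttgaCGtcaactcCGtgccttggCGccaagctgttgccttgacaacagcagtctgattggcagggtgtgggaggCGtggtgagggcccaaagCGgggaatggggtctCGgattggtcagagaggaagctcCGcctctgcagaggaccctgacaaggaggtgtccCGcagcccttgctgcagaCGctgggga
Mest: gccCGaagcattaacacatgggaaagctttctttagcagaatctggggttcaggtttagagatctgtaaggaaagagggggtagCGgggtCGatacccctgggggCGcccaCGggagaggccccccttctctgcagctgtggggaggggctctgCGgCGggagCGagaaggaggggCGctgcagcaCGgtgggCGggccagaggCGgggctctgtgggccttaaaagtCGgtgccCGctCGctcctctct
Dlk1: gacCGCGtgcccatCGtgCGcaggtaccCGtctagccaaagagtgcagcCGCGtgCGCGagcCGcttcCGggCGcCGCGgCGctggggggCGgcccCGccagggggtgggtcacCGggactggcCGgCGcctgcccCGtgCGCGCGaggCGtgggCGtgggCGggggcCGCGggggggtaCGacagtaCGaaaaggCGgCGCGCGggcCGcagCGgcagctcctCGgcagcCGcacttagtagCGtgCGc
These windows are at chr1:125260809-125261058 for Ndn, chr1:76130744-76130993 for Peg3, chr4:60321564-60321813 for Mest and chr6:134192347-134192596 for Dlk1, all on the + strand of GRCr8. They held 10 CpG for Ndn, 11 for Peg3, 15 for Mest and 41 for Dlk1, and 99.0% of all windows held fewer than the Dlk1 window. The hexamer TGCCGC, or GCGGCA on the other strand, is the sequence that the imprint-keeping protein ZFP57 binds when methylated, and each match contains a CpG. It was found in 3 of the 11 member windows, those of Dlk1, Plagl1 and Snrpn, and in 8.91% of all windows. A match describes the letters only, and the members' control regions lie in part outside these windows.

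No member differed 1.5-fold between the pools. On the brightest probe of each gene, the differences ran from -0.30 for Dlk1 to 0.067 for Gnas, with a median of -0.067 over the 8 genes. The median of all 24140 genes and transcripts measured well above background in both pools was -0.016; 5% lay below -0.28 and 5% above 0.34. At least 1.5-fold apart were 0 of 8 members against 3.4% of all genes and transcripts, and at least 2-fold apart 0 of 8 against 1.76%. With 8 genes, a count of 0 is near these shares, which are not matched for brightness. Of 1602 spots at least 2-fold apart, 1170 lay in patches, places on the slide where neighbouring spots of other probes differed 2-fold. Of the 52 member spots kept, 6 lay in patches. The share of all measured spots in patches was not counted, so neither count can be set against it. Of the 8 members 5 were lower in the male pool, against 55% of all; with centring on the array median, with normexp background correction or with the mean over a gene's probes it was 6 of 8. The share of all genes and transcripts lower for males moved too, to 64.8% with median centring and 46.5% with normexp, and was 55.0% with the mean over probes. On single probes, 9 of 16 were lower in the male pool, against 55.2% of all probes. For 2 of the 16 the difference was less than the technical SD. The share of all probes for which this holds was not counted. That SD leaves out labelling and arrays, so a larger difference is not thereby one between the sexes. The 8 neuron markers had a like median of -0.061, 7 of them lower for males against 55% of all, and none was at 0. Their summed level was 25.5 (male) and 27.3 (female). Markers of oligodendrocytes (8 of 8 higher, median 0.12) and of astrocytes and tanycytes (7 of 7 higher, median 0.11) went the other way. The part of these cells in the members' values was not tested.

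**Figure D1:**
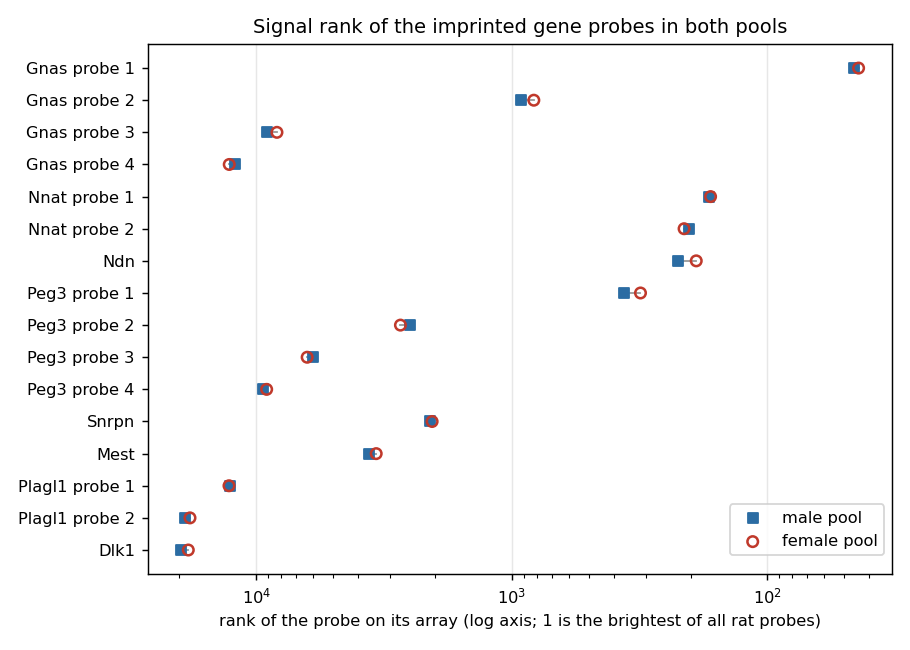
Rank of each of the 16 probes on its array (x axis, logarithmic, 1 is the brightest of all rat probes) in the male pool (filled squares) and the female pool (open circles), with probes of a gene numbered from the brightest. Gnas, Nnat, Ndn and Peg3 each have a probe in the brightest 1% on both arrays, and squares and circles of a probe lie close together.

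Several members gave some of the strongest signals on the arrays. Of the 16 probes, 5 were in the brightest 1% of both arrays and 9 in the brightest 10%. The rank of a probe depends on its sequence as well as on its RNA, so ranks of different probes do not order the genes by RNA amount. Between the arrays the median rank shift over the 16 probes was 0.392 percentage points, and the largest was 2.61 points, for Dlk1. The median over all 28434 probes well above background on both arrays was 0.588 points, but these are not matched for brightness, and a probe near the top of an array has little room to shift.

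Nnat encodes neuronatin, a small membrane protein of the endoplasmic reticulum that is abundant in developing and endocrine cells; the gene lies in an intron of Blcap. Its brightest probe had a level of 24.01 (male) and 23.4 (female), at ranks 169 and 167, on 10 spots. Its second probe had levels of 21.3 and 20.7, at ranks 203 and 212, on 9 spots; a further spot carried an outlier flag and was left out. Both probes were thus slightly higher in the male pool, by 0.035 and 0.042, with technical SDs of 0.022 and 0.024. The spots did not all go one way: 3 of 10 and 3 of 9 were lower in the male pool. With quantile normalization the second probe was at -0.0035.

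Ndn encodes necdin, a MAGE family protein of neurons that have left the cell cycle. Its probe had a level of 20.2 (male) and 21.7 (female), at ranks 224 and 190. The 10 male spots ran from 17.6 to 22.1 (median 20.4) and the 10 female spots from 19.9 to 23.1 (median 22.02), so the ranges overlapped. At matched positions all 10 differences were under 0, from -0.20 to -0.043, with a mean of -0.105 ± 0.052 (SD over spots, technical). This mean was 4.68 times its technical SD of 0.022, which leaves out labelling and arrays. Among other probes with 10 spots, this multiple was 0.17 for Igf2r, 4.96 for Nap1l5 and 5.99 for Stmn2. Without the 2 spots in patches, where neighbouring spots of other probes differed 2-fold, the mean Ndn difference was -0.085.

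Snrpn encodes SmN, the neuronal form of a core protein of the splicing machinery, and its messenger also carries the short reading frame Snurf. The Snrpn probe had a level of 3.08 (male) and 3.17 (female), at ranks 2095 and 2053. Each of the 10 spots was lower for males, between -0.098 and -0.011, with a mean of -0.042 ± 0.028 (SD over spots). Snurf, added here because it shares the transcript and after its values were seen, had a level of 11.53 (male) and 11.8 (female) on 10 spots, of which 8 were lower for males. Its difference was -0.029 ± 0.035 (SD over spots), and its second probe was at -0.044. Centring on the array median instead of the 75th percentile shifted all genes by -0.031, which is near the size of both differences. Snrpb, which encodes the closest relative of SmN, was at 0.040 with a technical SD of 0.060, and 1 of its 2 spots lay in a patch.

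**Figure D2:**
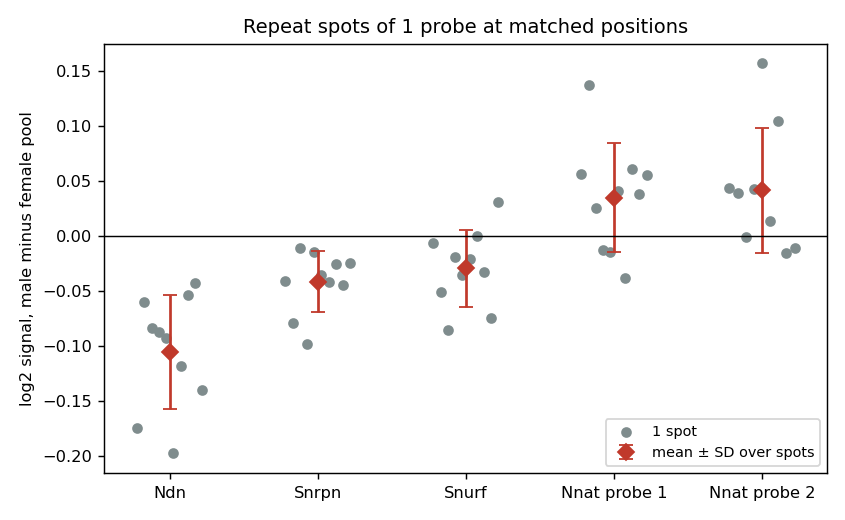
Male minus female log2 signal of each repeat spot (grey points, spread sideways only for display) of the Ndn, Snrpn, Snurf and Nnat probes, with the mean and SD over spots (red diamonds). All spots of Ndn and Snrpn lie below 0, with means of -0.105 and -0.042, while those of Nnat lie on both sides of it.

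Peg3 encodes a large zinc finger protein that binds DNA, and 4 probes measured it. Its brightest probe had a level of 15.0 (male) and 16.0 (female), at ranks 364 and 314, a difference of -0.092. The others had levels of 2.51 and 2.31, of 0.778 and 0.732, and of 0.352 and 0.379 in the male and female pools. Their differences were 0.119, 0.087 and -0.106, so the 4 probes split evenly between higher and lower, each by 1.02 to 1.68 times its technical SD. The mean over the 4 probes was 0.0021. The dimmest Peg3 probe lay in a patch.

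Gnas encodes the stimulatory G protein subunit that links hormone receptors to cyclic AMP, and the locus also gives other transcripts from further start sites. Its probe for NM_019132 ranked highest among the 16, with levels of 45.1 (male) and 43.1 (female), at ranks 46 and 44. That probe differed by 0.067, less than its technical SD of 0.071, and by 0 with quantile normalization. A pair of probes for NM_001159656 were lower in the male pool. The first of them had levels of 7.02 and 7.93 on 2 spots and differed by -0.17, or 3.48 times its technical SD; the other had levels of 0.374 and 0.452 and differed by -0.27, or 3.23 times. The probe for NM_001024823 had levels of 0.205 (male) and 0.182 (female) and differed by 0.18, or 1.46 times its technical SD. The probes of this locus thus went both ways, and each kept its sign with median centring and normexp. The accessions are those of the array design, and which start site each probe reports was not tested. Gnal, the relative of Gnas that couples dopamine and odorant receptors, was at -0.036, and at 0.016 with normexp.

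Mest encodes a protein of the alpha/beta hydrolase family that is induced in growing fat tissue and expressed in mesoderm. It had a level of 1.60 (male) and 1.75 (female), at ranks 3631 and 3398. The difference of -0.13 was 1.86 times its technical SD of 0.071, and it was -0.059 with normexp.

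Plagl1 encodes a zinc finger factor that halts the cell cycle and regulates other imprinted genes. Its brighter probe had a level of 0.184 (male) and 0.181 (female), a difference of 0.023 that fell under 0 with median centring and with normexp. The dimmer probe had levels of 0.057 and 0.066 and differed by -0.22, with a technical SD of 0.20. The brighter probe lay in a patch, so without spots in patches Plagl1 was at -0.22 on the other probe.

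Dlk1 encodes a membrane protein related to Notch ligands that restrains fat cell formation and marks some hypothalamic neurons. It was the dimmest member by rank, with levels of 0.050 (male) and 0.062 (female), at ranks 19661 and 18471. Its difference of -0.30 was the furthest from 0 among the 8 members and more than its technical SD of 0.20, and it was -0.20 with normexp. It rests on 1 spot, which lay in a patch, so no value for Dlk1 is left without such spots.

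**Figure D3:**
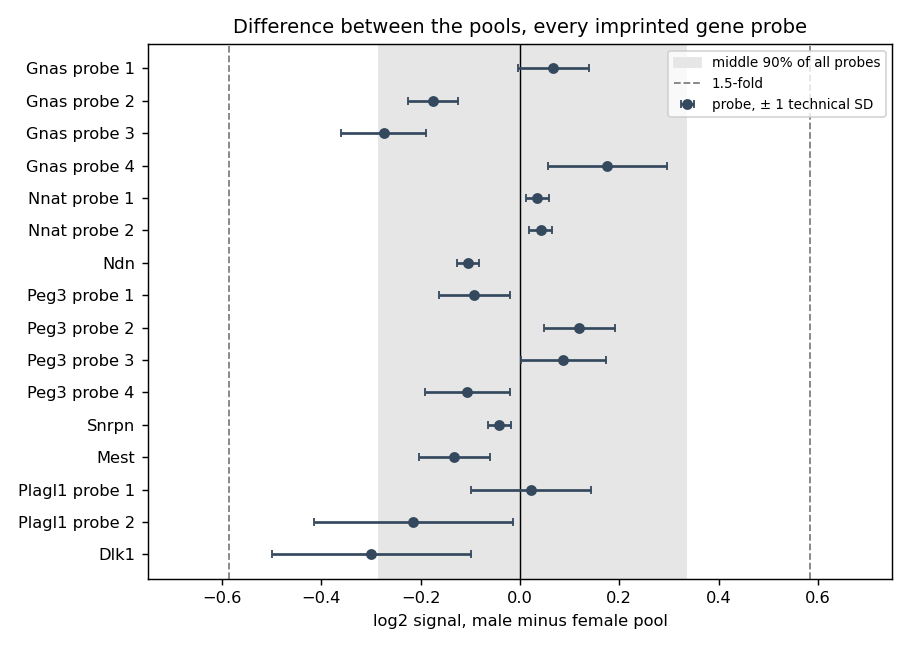
Male minus female log2 signal of the 16 probes (points) with 1 technical SD on each side (bars), the middle 90% of all probes (grey band, -0.28 to 0.33) and 1.5-fold (dashed lines). All 16 points lie inside the dashed lines, and the probes of Gnas, Peg3 and Plagl1 fall on both sides of 0.

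The genes that share imprinted regions with the members were read from a list of 23 neighbours. Of these, 13 were matched and 12 were well above background on both arrays, 9 of them lower for males, against 55% of all genes and transcripts; their median was -0.078. With median centring it was 11 of 12, against 64.8% of all. Near Dlk1 lie Meg3, a long noncoding RNA read from the maternal copy, and Dio3, the deiodinase that inactivates thyroid hormone. Meg3 had levels of 16.4 (male) and 15.9 (female) on 8 spots, a difference of 0.048, and -0.11 on its second probe. Dio3 had levels of 0.014 (male) and 0.037 (female), 2.64-fold lower in the male pool, at -1.40 on 1 spot outside patches; with normexp it was -0.46. Usp29, a neighbour of Peg3 that encodes a deubiquitinase, was at -0.13, and Zim1 did not stand well above background in either pool; Rtl1 and Mkrn3 were not matched to a probe. Blcap, the host gene of Nnat, was at -0.061, and Copg2, which overlaps the Mest region and encodes a coat protein of transport vesicles, was at 0.024, but under 0 with median centring and normexp. Ube3a, the ubiquitin ligase read from the maternal copy in neurons, was at -0.091 on its brightest probe, with 0.063 and -0.069 on the others. Ddc, the decarboxylase of dopamine and serotonin synthesis next to Grb10, was at -0.21, with -0.14 on its second probe.

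A wider list held 67 further genes listed as imprinted in rodents, from general knowledge and overlapping the list of neighbours. Of these, 47 were matched and 40 were well above background on both arrays, 25 lower and 15 higher for males, or 62.5% lower against 55% of all; their median was -0.052. With median centring 31 of 40 were lower, against 64.8% of all. At most 0.3 apart on the log2 scale were 34 of the 40, against 89.6% of all genes and transcripts. At least 2-fold apart were 2 of 40, Igf2 and Dio3, against 1.76% of all; at least 1.5-fold apart were 3 of 40, with Ascl2 as the other, against 3.4%. Igf2, which encodes insulin-like growth factor 2, had a level of 2.20 (male) and 0.830 (female) on 2 spots, a difference of 1.41, and 1.26 on its second probe. Markers of meningeal fibroblasts, a known source of Igf2 in adult brain, moved the same way: 8 of 8 were higher for males, where 55% of all were lower. Their median was 1.25, none was at 0, and their summed level was 2.35 (male) and 0.948 (female). Other markers leaned the same way: 8 of 8 for oligodendrocytes (median 0.12) and 7 of 7 for astrocytes and tanycytes (0.11). So did 5 of 5 for red blood cells (0.84) and 4 of 5 for choroid plexus and ependyma (0.25). The same held for 3 of 4 pituitary markers (1.19), 6 of 8 for endothelium (0.18) and 6 of 8 for microglia (0.085). Neuron markers leaned the other way, with 7 of 8 lower. The part of these cells in the Igf2 value was not tested.

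Cdkn1c encodes an inhibitor of the cell cycle, and its probes were both higher in the male pool, at 0.347 and 0.353 with technical SDs of 0.085. The levels of the first were 0.658 (male) and 0.517 (female), and those of the other 0.364 (male) and 0.285 (female). Ascl2, a transcription factor gene best known from the placenta, had levels of 0.136 and 0.257 in the male and female pools, a difference of -0.91, or -0.68 with normexp; its only spot lay in a patch, so no value is left without such spots. Slc22a2, an organic cation transporter gene, passed the background limit for males only, on 1 spot. With the female value set to the lowest signal of any probe past that limit, Slc22a2 was at least 1.54-fold higher for males. This bound is 0.62 on the log2 scale beside a technical SD of 0.46, so it is not firm. H19, the noncoding RNA beside Igf2, did not stand well above background in either pool.

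**Figure D4:**
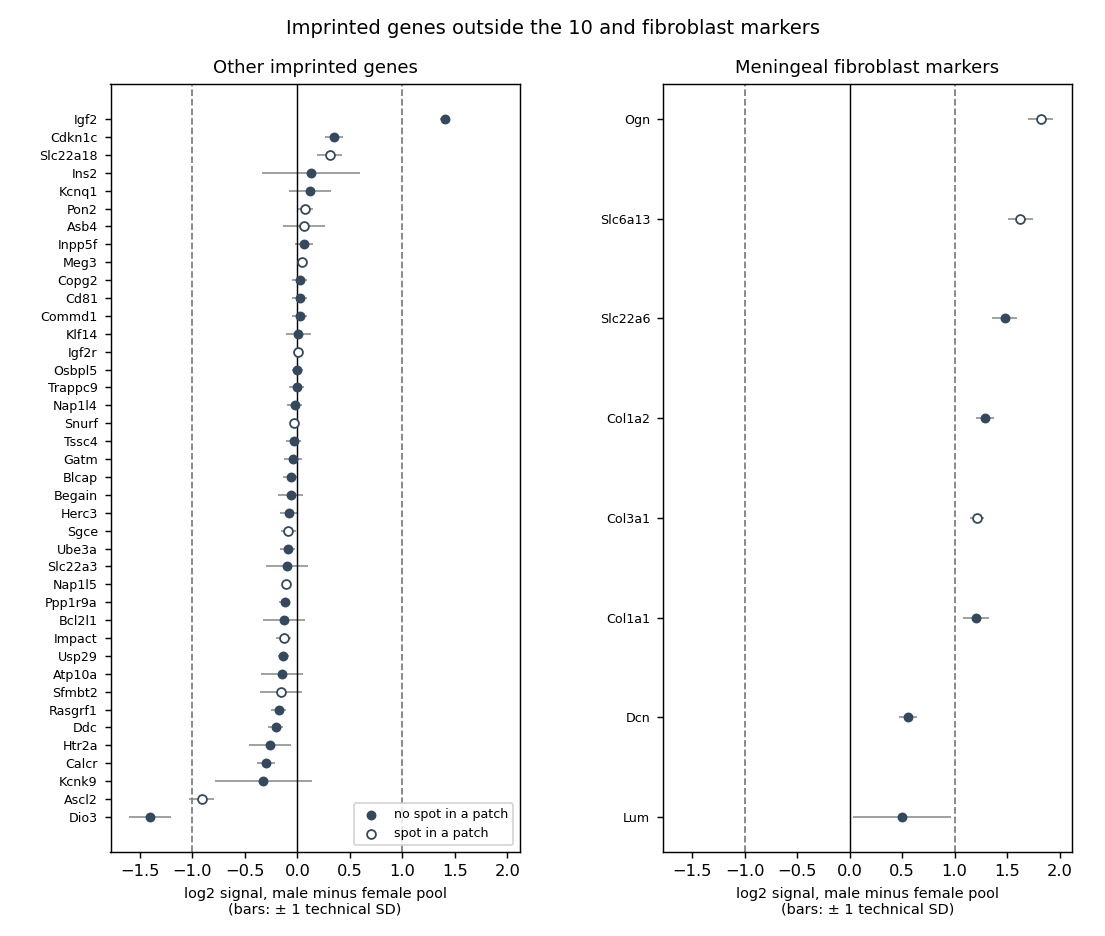
Male minus female log2 signal of the 40 other imprinted genes measured on both arrays (left) and of 8 meningeal fibroblast markers (right), with 1 technical SD on each side, dashed lines at 2-fold, and open points where at least 1 spot lay in a patch. Igf2 at 1.41 and Dio3 at -1.40 lie outside the dashed lines on the left, and 6 of 8 markers do on the right. Of all genes and transcripts, 1.76% were at least 2-fold apart.

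Of 20 genes listed for keeping imprints in place, 13 were matched and 10 were well above background on both arrays. All 10 were under 0 on their brightest probe, against 55% of all genes and transcripts, with a median of -0.13. At least 1.5-fold apart were 0 of 10, against 3.4% of all. All 10 were also under 0 with median centring, quantile normalization and normexp, against 64.8%, 59.6% and 46.5% of all. Some lay within their technical SD, such as Mbd3, a subunit of a chromatin remodelling complex, at -0.0058 with a technical SD of 0.085. The second probes of Ehmt2 and Setdb1, both histone methyltransferase genes, were at 0.11 and 0.091. The other 3 genes, Dnmt1, Dnmt3l and Hells, passed the background limit in neither pool and were above 0 without that filter. These 6 names were added after their values were seen. The pair furthest from 0 were Dppa3, which protects imprints in the early embryo, at -0.29 with a technical SD of 0.20, and Zfp57, the zinc finger protein that holds methylation at imprinted regions, at -0.29 with a technical SD of 0.12. With normexp they were at -0.061 and -0.21. Dppa3 had levels of 0.027 (male) and 0.033 (female), and Zfp57 had 0.092 and 0.113.

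Of the relatives of the members, 14 of 23 measured were lower for males, against 55% of all genes and transcripts; the median was -0.036. Past 1.5-fold was 1 of the 23, against 3.4% of all. This was Gnaq, the G protein subunit that activates phospholipase C, at -0.69, or -0.32 with normexp. The only Gnaq spot lay in a patch. Grb14, the relative of Grb10, was at 0.22, with levels of 0.624 and 0.536 in the male and female pools. Maged1, a MAGE gene like Ndn and Magel2, was at -0.20. Plagl2 was not matched to a probe. Among 34 measured genes whose products act with those of the members, 24 were lower for males, against 55% of all, and 0 were 1.5-fold apart, against 3.4%; the median was -0.059. With median centring 28 of 34 were lower, against 64.8% of all. The pair furthest from 0 were Gnrh1, the gonadotropin-releasing hormone gene, at -0.32, and Pomc, the precursor of melanocortins and endorphin, at 0.24. Pomc is also a pituitary gene: its markers went both ways. Of 8 pituitary markers 4 were measured on both arrays, 3 of them higher for males, with a summed level of 1.09 (male) and 0.377 (female). The median of these 4 was 1.19, the same direction as Pomc. Tshb differed by 3.64, Cga by 2.03 and Lhb by 0.35, while Pou1f1 differed by -0.32, with 1 spot each. Patches held the Cga and Pou1f1 spots, but not those of Tshb and Lhb. Prl, the prolactin gene, passed the background limit for females only, at least 7.81-fold higher there on 1 spot in a patch, and the other 3 passed it in neither pool. Their part in the Pomc value was not tested.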

How the data were processed

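The values used are processed spot signals of Agilent Feature Extraction 11.5.1.1, per the file headers, an intensity with background subtracted and no scaling between arrays; the submitters' processing notes name version 9.1. The deposited series matrix holds intensities that equal this signal divided by the 75th percentile and multiplied by 100 (all 42947 spots per array within 0.01 on the log2 scale).

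In all, 664 spots flagged as outliers on at least 1 array were dropped, and none was saturated. Each log2 signal had the 75th percentile of its array's rat transcript spots subtracted, then repeat spots of a probe were averaged. Accessions were matched to symbols through RefSeq genes of GRCr8 (21106 probes). A gene took its brightest probe, and a probe counted as well above background when over 50% of its spots did. The technical SD was pooled within signal ranges over probes with at least 8 spots, and divided by the root of the number of spots. A patch is a place where 2 or more of the 18 measured neighbours of a spot, those of its own probe aside, differed 2-fold in 1 direction. With 1 array per sex no test was run, and the number of arrays limits the precision.

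Alternatives were median centring, quantile normalization, normexp background correction (limma 3.58.1, offset 50) on median spot and background signals in place of mean spot signals, the mean over probes, no filter on dim probes, leaving out patches, and the series matrix. The code was tested on simulated data with known changes. The 10 members, fixed neighbours and imprinted genes (Igf2, H19 and Cdkn1c among them) and nearest relatives (Snrpb, Gnal, Grb14, Plagl2 and Maged1) were named whatever their values; from each list also those 1.5-fold apart and, in the maintenance, relative and partner lists where none was, the pair furthest from 0. Other names were added after values were seen. Members, lists and the patch rule were chosen with earlier results of these data known.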

Additional observations from a re-analysis of the deposited data

How the results depend on the processing

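The median over the members lay between -0.097 and -0.054 in the 7 alternatives, and 0 members were 1.5-fold apart in each. Leaving off the filter on dim probes was bound to repeat the main result, because all 8 members passed it. So was the series matrix, which holds the same scaled signal. The median over the other imprinted genes lay between -0.083 and -0.021. The count of these genes at least 2-fold apart was 1 with normexp, where Dio3 dropped out, and 4 without the filter on dim probes, which also raised the count at least 1.5-fold apart from 3 to 7 by letting in probes at background. Igf2 stayed between 1.33 and 1.41. Signs changed for Peg3, Plagl1 and Meg3 with some choice of probe, scaling, background or spots, for Gnas with the mean over probes (-0.051), and for Copg2 and Gnal. Of 193 single-gene values, 18 moved by more than the technical SD. The 193 include values from the series matrix and from leaving off the filter, which could not move for these genes. The share that stayed is therefore partly fixed in advance. Only Igf2 and Dio3 among these genes were 2-fold apart to begin with, and Dio3 fell to -0.46 with normexp. That 0 values reversed a 2-fold difference therefore says nothing about the other genes. Probes near background, such as Dio3, carry the least signal behind their values. No paired analysis was possible because each sex had 1 array.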
